A study of Mus musculus with 4 samples.

Results

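The replication-dependent histone genes are the clustered genes that supply new histones while DNA is copied, and their messages were followed across germinal center (GC) B cells of 4 mice. Members were genes of the count tables whose symbols start with Hist1h, Hist2h, Hist3h or Hist4h and which held 20 or more UMIs (molecular barcodes that count a captured message once) over the annotated cells. Of 31053 genes listed, 67 had such a symbol and 53 were members, of which 5 encode H1, 14 H2A, 15 H2B, 11 H3 and 8 H4. Just above the minimum were Hist2h2ab with 24 UMIs and Hist1h2bp and Hist1h2bk with 25 each. Just below it were Hist1h2bl with 17 and Hist1h4f and Hist1h4b with 14 each.

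The cells were splenic B220+IgD- cells of 8-week-old female C57BL/6J mice, taken 10 days after immunization with sheep red blood cells, and were profiled on the 10x Chromium platform from the 3' end of each message. All 4 mice carried Cγ1-cre, which is active in B cells once they are activated by antigen, so the controls share it. The WT mouse had no floxed allele, C was heterozygous for floxed Crebbp, K for floxed Kmt2d, and CK for both. Each genotype was 1 mouse and 1 library, so no difference between genotypes given here has a replicate check and none was tested. Ranges in brackets are 95% intervals of the counting error alone. Unless said otherwise, sets of 4 values follow the order WT, C, K and CK.

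Histones package DNA into nucleosomes, with H2A, H2B, H3 and H4 as the core and H1 as the linker that seals DNA where it enters and leaves. A cell that copies its genome needs new histones at the same pace, and the replication-dependent genes meet this need with messages that are made in S phase and destroyed at its end. Unlike other messages, most of them end in a short stem-loop instead of a poly(A) tail. The stem-loop is bound by SLBP, which carries the message through processing, translation and decay. Dark zone centroblasts are among the fastest dividing cells of the body. Library preparation here primes on poly(A), so the levels below are those of the captured part of these messages, and this part may differ between members.

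The stem-loop was present in most members, and it is shown because it bears on what such libraries can capture. A 16-base consensus, written as GG, 3 pyrimidines, TT, 1 pyrimidine, T, any base, A, 3 purines and CC, was searched within 100 bases after the stop codon in the GENCODE vM21 transcripts (GRCm38, the same assembly as mm10). It was found in 39 of 53 members (73.6%) and in 48 of 21762 coding genes of the annotation (0.221%), members included. It began between 22 and 59 bases after the stop codon. Of the 14 members without it, 9 have an annotated transcript that ends within 1 base of the stop codon, so the searched stretch is missing there. Members of each core family and of H1 are printed from the coding strand, with the stem-loop in capitals and the bases around it in lower case.
Hist1h1e: cccaaaGGCTCTTTTCAGAGCCacccacaa
Hist1h2ap: aaaaaaGGCTCTTTTCAGAGCCatc
Hist2h2ac: caaaaaGGCTCTTTTTAGAGCCaccaaatc
Hist1h2bm: cacaaaGGCTCTTTTCAGAGCCactaagca
Hist1h3d: cccaaaGGCTCTTTTCAGAGCCacccccgt
Hist1h4i: cttaaaGGCCCTTTTTAGGGCCaccacaaa
The stem-loops in capitals lie at chr13:23621782-23621797 (minus strand) for Hist1h1e, chr13:21833029-21833044 (minus) for Hist1h2ap, chr3:96220418-96220433 (minus) for Hist2h2ac, chr13:21722506-21722521 (plus) for Hist1h2bm, chr13:23576244-23576259 (plus) for Hist1h3d and chr13:22040966-22040981 (minus) for Hist1h4i. All lie in the only exon of the transcript, after its stop codon. The stem differed between families. It opened with GGCCC in 7 of 8 H4 members and with GGTCC in the other, and with GGCTC in every H1, H2A, H2B and H3 member that held the consensus.

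Signals for a poly(A) tail were found in a minority of members. The hexamers AATAAA or ATTAAA occurred after the stop codon in 20 of 53 members (37.7%), against 88.4% of coding genes. In the 9 members whose annotated transcript ends within 1 base of the stop codon, there was no stretch to search. They count among those without a hexamer. A run of 8 or more A occurred in 6 members (11.3%) and in 28.7% of coding genes. Hist1h2ap, an H2A gene, had such a run without a hexamer. Its A bases are in capitals below, 19 bases after the stop codon and directly before its stem-loop, at chr13:21833045-21833064 on the minus strand of GRCm38.
Hist1h2ap A-rich stretch: ccgAAAAgAAAAAAAAAAAA
The members are compact genes. A transcript of 1 exon was annotated for 51 of 53 members and for 12.2% of coding genes. They fell into 41 on chromosome 13 between 21716422 and 23764406, 9 on chromosome 3 between 96219865 and 96270132, 2 on chromosome 11 and 1 on chromosome 6. The 8 H4 members encode 1 protein, the 11 H3 members 3, the 14 H2A members 7 and the 15 H2B members 11, whereas each of the 5 H1 members encodes its own. Reads of copies this alike may not be assignable to 1 gene. More than 50% of the 50-base words of the transcript were shared with other genes in 22 members, and 93.1% in Hist1h2ap (mostly with Hist1h2ao, not a member), so levels of single core histone genes are uncertain to that extent. Hist1h1b and Hist1h1a shared none. The annotated span of Hist1h2be overlaps Hist1h1e on the same strand, and 32.0% of the words of Hist1h1e were shared.

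Promoters had their own family pattern. Windows from 250 bases before to 50 after the start (RefSeq, GRCm38.p6) matched 48 members by gene number, and motifs were searched on both strands. CCAAT was in 44 of 48 windows (91.7%) and in 37.9% of all 27025 windows of that length. It was in every matched H1, H2A, H2B and H3 member and in 3 of 7 H4 members. TATAAA was in 27 of 48 (56.3%, 14.2% of all). The octamer ATTTGCAT was in 5 of 14 H2A and 5 of 13 H2B members and in none of the matched H1, H3 or H4 members, against 1.75% of all windows. In the H1 members CCAAT, in capitals below, was centered between 48.5 and 53.5 bases before the start.
Hist1h1a: gttagcattcaCCAATcacagcacagc
Hist1h1b: tggccgctccaCCAATcacagcccagc
Hist1h1c: ccgctggagcaCCAATcagcgcgcgcc
Hist1h1d: ggcgcagggaaCCAATcaccacgcagc
Hist1h1e: tggacagcgcaCCAATcacggcgcagc
These windows lie at chr13:23763601-23763627 (plus strand) for Hist1h1a, chr13:21780663-21780689 (minus) for Hist1h1b, chr13:23738742-23738768 (plus) for Hist1h1c, chr13:23554970-23554996 (plus) for Hist1h1d and chr13:23622595-23622621 (minus) for Hist1h1e. A match is a description of the letters and was not tested as a site of binding.

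The libraries held 33270825 to 39803865 UMIs, and the deposited cell table named 9804 of 39009 barcodes as GC B cells (1227, 2041, 2583 and 3953). Markers of GC B cells summed to 1901 to 2028 CPM (counts scaled to a common total) in these cells and T cell markers to 23.3 to 43.2. Of 143 barcode sequences present in 2 or more libraries, 9 were annotated in 2 or more. The annotation ends below 2500 genes per cell, and 3105 GC B cells above this limit, placed here by their 25 nearest neighbours, made up 42.5, 25.1, 24.0 and 15% of GC B cells. Results that rest on the limit are therefore given with and without these cells. Crebbp was at 68.4, 43.0, 38.6 and 38.0 CPM and Kmt2d at 18.5, 21.3, 9.85 and 15.1 CPM, from 3' ends that need not lie in the deleted exons and so do not check the genotypes.

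Over all annotated cells WT held members at 505 CPM (487 to 523), C at 1154 (1131 to 1177), K at 499 (487 to 511) and CK at 1830 (1809 to 1851). Among annotated cells C and CK thus lay above WT and K, before subtype or cell cycle was considered. In WT, GC B cells above the gene limit held members at 2753 CPM (2723 to 2784). The WT values of this paragraph thus rest on the limit. Levels of CB with these cells included are given below for each library. H1 took the largest part in 3 libraries, with 55.6, 63.5 and 60.5% of member UMIs in WT, C and CK against 29.7% in K. Hist1h1b (ENSMUSG00000058773), the gene for the linker histone H1.5, had the most UMIs of all members, 14019, and stood at 121, 390, 68.0 and 586 CPM. Hist1h1e (ENSMUSG00000051627), the H1.4 gene, followed with 96.3, 210, 31.6 and 298 CPM. Both were lowest in K. Hist1h2ap (ENSMUSG00000094777) had 18.8, 40.0, 102 and 111 CPM, and Hist1h4i (ENSMUSG00000060639), an H4 gene, 33.6, 45.4, 79.5 and 71.0. In annotated cells Hist1h2ap and Hist1h4i were lowest in WT. In CB with the cells above the limit included, both were lowest in C. The 10 members with the most UMIs held 77.5 to 82.1% of member UMIs in each library.

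Histone messages were most abundant in the dark zone, where cells divide. In CB (centroblasts), WT held members at 1677 CPM (1596 to 1761), C at 3300 (3223 to 3379), K at 1201 (1165 to 1238) and CK at 4469 (4409 to 4529). Early CB stood at 1305, 2481, 804 and 2486 CPM. Both subtypes lay above every other subtype with 50 or more cells in each library. Cells in transition from CB to CC (centrocytes, the light zone cells) were at 261, 274, 159 and 336 CPM, and CC at 183, 247, 111 and 240. Prememory cells were at 303, 310, 118 and 282 CPM. The log2 ratio of CB over CC was 3.20, 3.74, 3.44 and 4.22. Subtype names were made from expression of the same cells, so these ratios are a description.

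**Figure D1:**
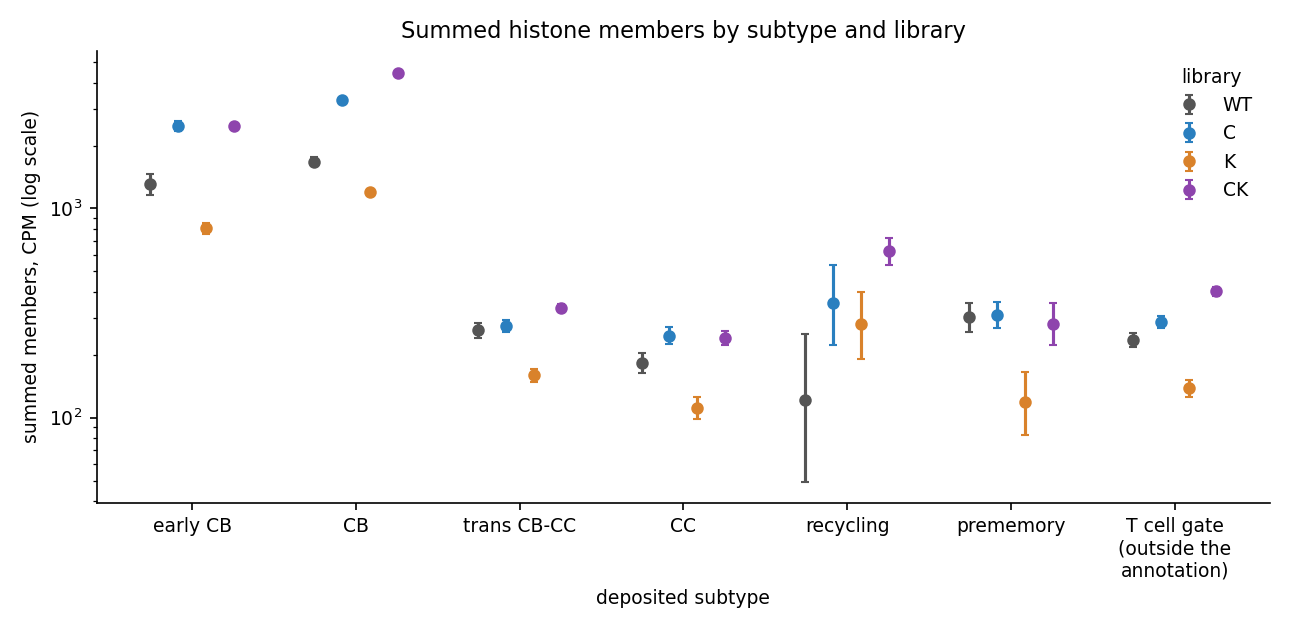
Summed level of the 53 histone members (vertical axis, CPM on a log scale) in each deposited subtype and in T cell marker-positive barcodes outside the annotation, with 1 point per library and exact Poisson 95% intervals. Early CB and CB stand highest in each of the 4 libraries, and CC lie at or below the T cell gate.

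The low end of this range, CC, lay below a T cell gate. Barcodes outside the annotation with UMIs of at least 2 T cell markers and no B lineage UMI served as a cell type with little expected division. They held members at 235, 287, 138 and 401 CPM, above CC in every library. With each cell thinned to 2000 UMIs, a member UMI was found in 64.4, 69.9, 65.2 and 76.8% of CB. For CC the shares were 29.5, 37.6, 18.4 and 34.7%, and for the T cell gate 38.1, 41.4, 22.5 and 43.4%. Without thinning, at median depths of 2670 to 4741 UMIs in CC and 1936 to 3229 in the gate, the shares were 52.9, 53.6, 32.4 and 47.0% in CC and 51.8, 48.5, 30.1 and 46.1% in the gate. Member UMIs in CC were accordingly not read as expression particular to CC. Whether they were background or low expression was not tested. The thinning left out 12, 34, 25 and 161 CC and 66, 327, 186 and 1159 barcodes of the gate.

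The same fall was seen along the deposited pseudotime, the rank of each cell on a path that starts in CB. Each library was cut into 10 bins of equal cell number by rank. Bin 1 held members at 2121, 5585, 2014 and 6897 CPM, bin 2 at 329, 999, 665 and 3349 and bin 5 at 308, 317, 209 and 351. Bin 3 of CK was still at 943 CPM, whereas that of the other libraries was at 228 to 444. With 5 bins, the log2 ratio of the first over the last was 2.18, 3.59, 3.5 and 4.35. In WT bin 10, at 362 CPM (304 to 427), lay above bin 9 at 211 (174 to 254). Pseudotime was computed from the same cells, so no test was made.

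**Figure D2:**
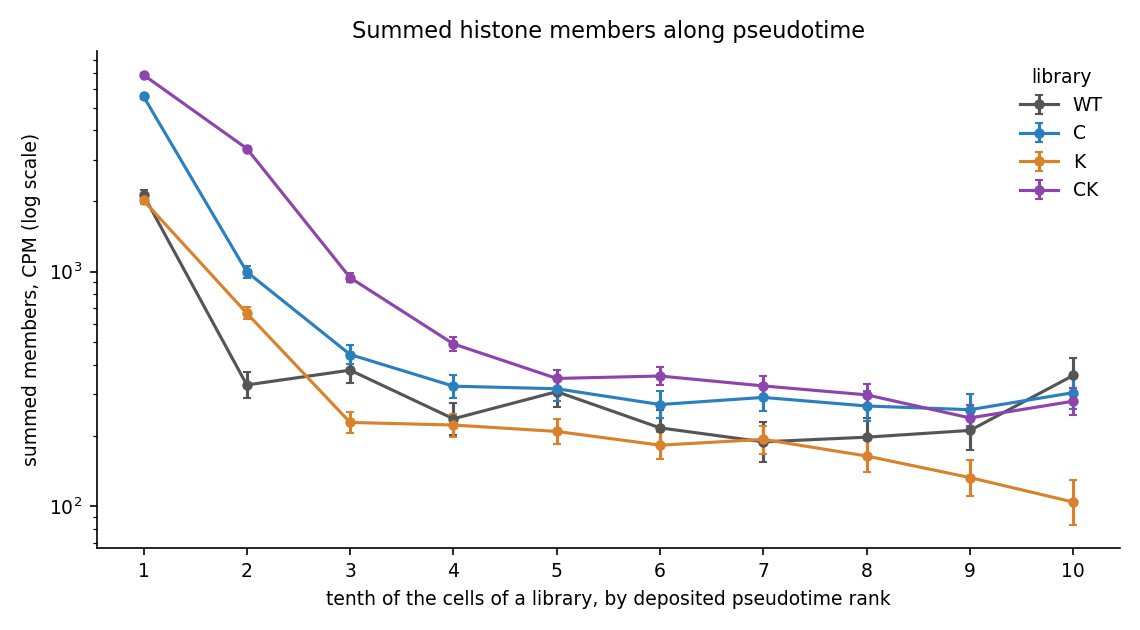
Summed level of the histone members (vertical axis, CPM on a log scale) in 10 bins of the cells of each library ordered by deposited pseudotime rank (horizontal axis), with exact Poisson 95% intervals. Levels fall from 2014 to 6897 CPM in bin 1 to 104 to 362 CPM in bin 10.

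Whether members follow the cell cycle was addressed with the deposited S and G2M module scores. The gene lists behind them are not given in the sources used here, so scores were also computed from the replication and G2M lists fixed for this work, which hold no member. A cell was called S-leading if its S score was above 0 and above its G2M score, G2M-leading if its G2M score was above 0 and at least as high as its S score, and neither otherwise. Members summed to 736, 1462, 551 and 1717 CPM in S-leading cells, 1366, 2765, 990 and 3919 in G2M-leading cells and 234, 280, 157 and 289 in the others. The lowest class was the same in each library.

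Counts were summed per library and class and tested in edgeR (quasi-likelihood test with library as a block, Benjamini-Hochberg over all 9877 genes tested). Of the 53 members, 44 passed the filter on low counts. In S-leading over neither-score cells 36 of the 44 rose and 0 fell, against 23.9% of all genes that rose, and the median log2 ratio was 2.39 for members and -0.03 for all genes. With the scores computed here 37 of 44 rose, and with no filter on low counts 38 of 53. All 5 H1 members rose, with a median of 2.83, as did 10 of 11 H2A (2.97), 9 of 13 H2B (2.36), 8 of 9 H3 (3.07) and 4 of 6 H4 (1.43). The 9 members that were not tested lie at 24 to 56 UMIs. Each test rests on 4 mice of 4 genotypes and on cells of the same mice in each class. The classes also hold different subtypes. Of 3309 S-leading cells 1919 were in transition from CB to CC, 662 early CB and 375 CB, and in the transition cells the sum was no higher in S-leading (230, 244, 137 and 329 CPM) than in neither-score cells (263, 301, 180 and 330). In CC it was at 172, 245, 144 and 215 against 184, 247, 107 and 244 CPM. In CB it was at 5585, 6544, 2367 and 7077 against 338, 494, 423 and 417 CPM, and early CB held no neither-score cell.

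H1 genes, which encode the linker histones, covered a wide range within this rise. Hist1h1a, the H1.1 gene, stood at 4.25, 4.14, 0.424 and 4.46 CPM in neither-score cells of WT, C, K and CK and at 37.3, 76.2, 13 and 109 CPM in S-leading cells. The classes did not overlap, and the log2 ratio was 4.22 (SE 0.17, edgeR adjusted p = 9.85e-22). Hist1h1b rose from 21.5, 27.5, 4.03 and 33.6 CPM to 252, 585, 89.1 and 608, a log2 ratio of 4.2 (SE 0.10, edgeR adjusted p = 8.90e-28). The ratio was 2.83 for Hist1h1d, 1.38 for Hist1h1e and 0.65 for Hist1h1c, each of which passed the test. Hist1h1c, the H1.2 gene, was at 25.5, 42.1, 20.8 and 38.5 CPM in cells with neither score, below its 34.5, 45.8, 22.1 and 39.0 CPM in the T cell gate.

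Among the core histones, single H2A genes led. Hist1h2an had the largest ratio of the 44, rising from 0.797, 0.974, 0 and 1.06 CPM in WT, C, K and CK to 14.4, 35.2, 2.10 and 33.1, a log2 ratio of 4.90 (SE 0.24, edgeR adjusted p = 2.73e-19). Hist1h2ap rose from 1.86, 1.95, 2.97 and 3.40 CPM to 40.6, 46.8, 110 and 91.9, a log2 ratio of 4.85 (SE 0.16, edgeR adjusted p = 3.98e-24). Hist1h2ae rose by 3.07 and Hist2h2ac by 1.95 on the log2 scale. Hist3h2a was the lowest of the family at -0.57, which did not pass the test (edgeR adjusted p = 0.0567) but did with RLE size factors, with no filter on low counts and without K.

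H2B genes split. Hist1h2bm rose by 3.29 and Hist1h2bn by 2.41 on the log2 scale, whereas Hist1h2bc, the H2B gene with the most UMIs, was at 18.6, 16.8, 26.3 and 21.3 CPM in neither-score cells and 8.51, 17.8, 25.6 and 21.1 in S-leading cells. Its log2 ratio was -0.04 (SE 0.13, edgeR adjusted p = 0.835), and its values overlapped. It was lower in S-leading cells, and passed the test, with the cells over the limit included (-0.22) and within CB alone (-1.06). Hist3h2ba was at -0.02 (SE 0.22, edgeR adjusted p = 0.948), and at 0.37 with the cells over the limit included. The H3 gene Hist1h3d rose by 2.54 and the H4 gene Hist1h4i by 1.70 on the log2 scale.

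Position and message end went with the size of the rise. Of the members on chromosome 13, 33 of 35 tested rose, with a median log2 ratio of 2.69, and of those on other chromosomes 3 of 9, with a median of 0.37. Members without an annotated poly(A) hexamer rose in 26 of 28 cases (median 3.02) and those with one in 10 of 16 (1.48). The group without one includes members with no annotated stretch to search, among them Hist1h1b and Hist1h2an. Within chromosome 13 the medians were 3.09 without and 1.94 with a hexamer. None of the 5 tested members on other chromosomes with a hexamer rose. These groupings were made after the ratios were seen and are given without a test.

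G2M-leading cells had still higher levels over all subtypes. In G2M-leading over S-leading cells 39 of 44 members rose and 0 fell, against 18.0% of all genes, with a median log2 ratio of 1.26. Hist1h2ap rose by 1.34, Hist1h1b by 0.73 and Hist1h4i by 0.65 on the log2 scale. Here too the classes held different subtypes. Of the S-leading cells 375 were CB, whereas 93.5% of 1822 G2M-leading cells were CB.

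Within CB the order turned around. Of the 26 members tested there, 0 rose and 23 fell in G2M-leading over S-leading cells, against 15.8% of all 6360 genes that fell, and the median log2 ratio was -1.0. In S-leading CB, WT held members at 5585 CPM (5129 to 6071), C at 6544 (6279 to 6817), K at 2367 (2248 to 2490) and CK at 7077 (6905 to 7251). G2M-leading CB held 1371, 2826, 998 and 4063 CPM, and CB with neither score 338, 494, 423 and 417. S-leading CB were few, 18, 66, 107 and 184 cells. With the cells over the limit included and scores computed here, S-leading CB were at 5635, 5693, 1889 and 6361 CPM and G2M-leading CB at 3283, 3644, 1122 and 4224, the same order in each library. All 5 H1 members, 6 of 6 H2A, 6 of 8 H2B, 3 of 4 H3 and 3 of 3 H4 members tested fell.

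Single members had the same order in CB. Hist1h1b was at 2171, 2811, 406 and 2662 CPM in S-leading CB of WT, C, K and CK and at 353, 956, 140 and 1264 in G2M-leading CB, a log2 ratio of -1.61 (edgeR adjusted p = 4.70e-21). Hist1h1a fell by 1.63, Hist1h2an by 1.49, Hist1h4i by 1.26 and Hist1h2ap by 1.09 on the log2 scale. Hist1h2bc was at -0.41 and Hist3h2ba at -0.15, and neither passed the test (edgeR adjusted p = 0.0949 and 0.790). Of the members tested within CB, only Hist1h2bc and Hist3h2ba did not rise in S-leading over neither-score cells of all subtypes. They also showed the smallest differences between G2M-leading and S-leading CB. Other members that did not rise, such as Hist3h2a, were not tested within CB.

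**Figure D3:**
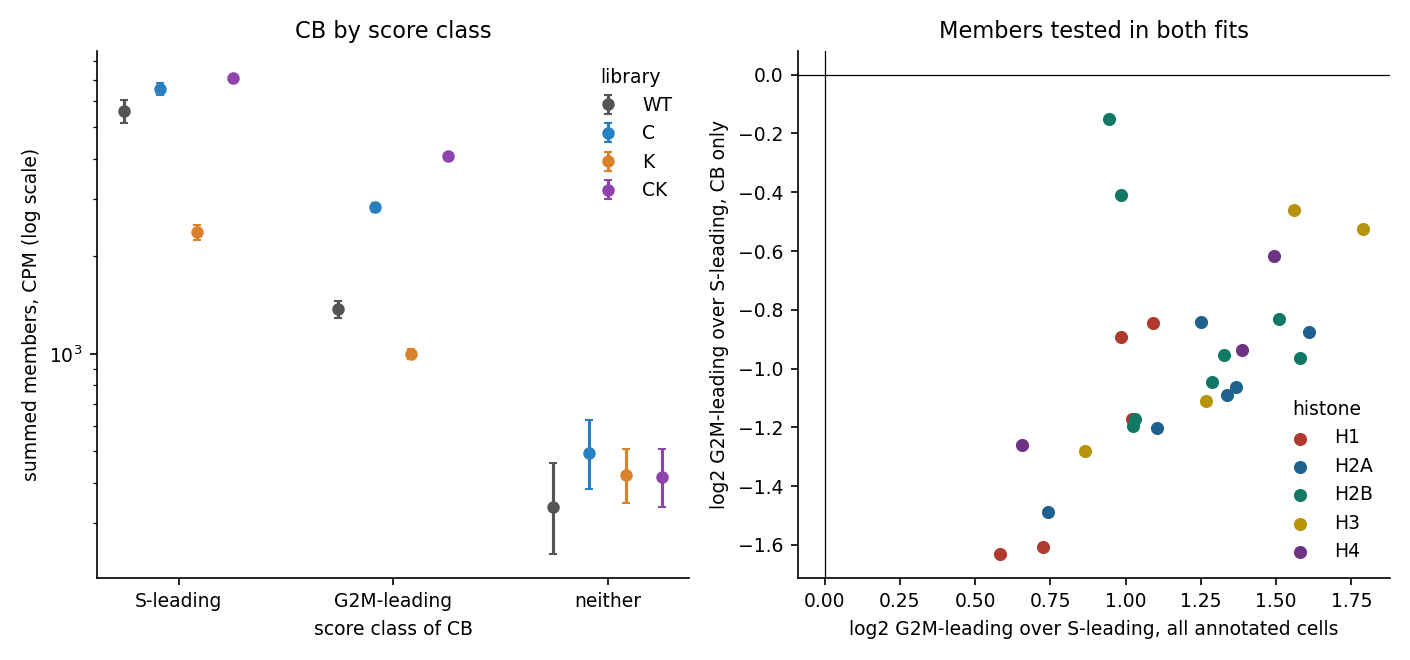
Left, summed histone members (CPM, log scale) in CB of each score class, 1 point per library with exact Poisson 95% intervals. Right, log2 ratio of G2M-leading over S-leading cells of each member tested in both fits, over all annotated cells (horizontal axis) and within CB alone (vertical axis). All of these members lie above 0 in the first fit and below 0 in the second.

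Genes that work with histones moved in their own ways. In S-leading over neither-score cells 11 of 12 histone chaperones rose and 1, Ipo4, fell, beside 23.9% of all genes that rose and 21.1% that fell. Chaf1a, the large subunit of the factor that places histones on new DNA, rose by 3.48 (edgeR adjusted p = 1.67e-23), Asf1b by 3.17 and Nasp, which stores H3 and H4, by 1.93 on the log2 scale. Of 14 tested genes for transcription and processing of histone messages 9 rose and 0 fell, among them Slbp, the stem-loop binder, by 2.03 (edgeR adjusted p = 3.24e-26) and Npat, which activates histone gene transcription, by 0.82. In G2M-leading over S-leading cells 0 of 12 chaperones rose and 6 fell, beside 18.0% of all genes that rose and 20.5% that fell, and Slbp fell by 1.23 (edgeR adjusted p = 4.96e-19). Slbp and Chaf1a, which fell by 1.23 as well, thus went opposite to the members over all subtypes.

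Histone variants outside the clusters, most of which carry poly(A) tails, had lower median ratios than the members. In S-leading over neither-score cells 7 of 10 tested rose and 2 fell (23.9 and 21.1% of all genes), with a median of 0.45, from H2afz at 1.58 to H1f0 at -0.28. H3f3a, for the replacement histone H3.3, rose by 0.10. In G2M-leading over S-leading cells 6 of 10 rose and 1 fell (18.0 and 20.5% of all genes), with a median of 0.57. Cenpa, the histone H3 variant of centromeres, led at 2.74 (edgeR adjusted p = 6.86e-26), and H2afx was at 1.62. Both lay above the member median of 1.26. The replication genes rose in 28 of 28 cases in S-leading cells and fell in 27 of 28 in G2M-leading cells, and 24 of 24 G2M genes rose in both comparisons. Genes of these last lists resemble those behind the scores, so their counts describe the classes.

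Whether the genotypes differed was examined in CB first. Relative to WT, the log2 ratio of the member sum was 0.98 for C, -0.48 for K and 1.41 for CK. When the cells over the limit were included, WT CB stood at 3650 CPM (3606 to 3695), C at 3842 (3795 to 3889), K at 1247 (1225 to 1270) and CK at 4557 (4515 to 4600). The ratios then were 0.07, -1.55 and 0.32 for C, K and CK. WT moved most by this step, from 1677 to 3650 CPM. The sums alone do not separate fewer cells with histone messages from less message per cell. With each cell thinned to the same depth, a member UMI was found in 64.4, 69.9, 65.2 and 76.8% of annotated CB. K was thus not below WT in this share, although its sum was lower (1201 against 1677 CPM). Without thinning K was below WT, at 81.6 against 85.8% in annotated CB and 88.6 against 94.1% with the cells over the limit included. The share also depends on message per cell, and these differences were not tested.

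Counts of members shifted in the same manner. In annotated CB 15 of 32 members with enough UMIs were higher in C than in WT by a log2 ratio of 1 or more, against 2.87% of all genes, and 29 of 43 in CK, against 4.71%. In CK 7 of the 43, and in C 1 of the 32, had at most 2 UMIs in WT. They reached the minimum of 20 UMIs over both libraries only through the mutant, so a ratio above 0 was built in. All of them were among those counted as higher. Of the others 22 of 36 were higher in CK and 14 of 31 in C. Among these 31, Hist1h2bn, Hist1h3a, Hist1h2af, Hist1h3b and Hist2h4 had 4 to 6 UMIs in WT. CB of C held more UMIs in total than those of WT, so for them too the minimum built in a ratio above 0. The count of 14 of 31 is therefore not free of this. With cells added, the counts were 1 of 51 in C (0.745% of all genes) and 1 of 51 in CK (1.01%). In K, 9 of 33 members were lower by that much in annotated CB (8.59% of all genes) and 30 of 52 with cells added (7.53%). The comparisons share the WT library. The median over members with cells added was 0.04, -1.26 and 0.27 in C, K and CK, and that over all genes -0.01, -0.14 and -0.01.

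**Figure D4:**
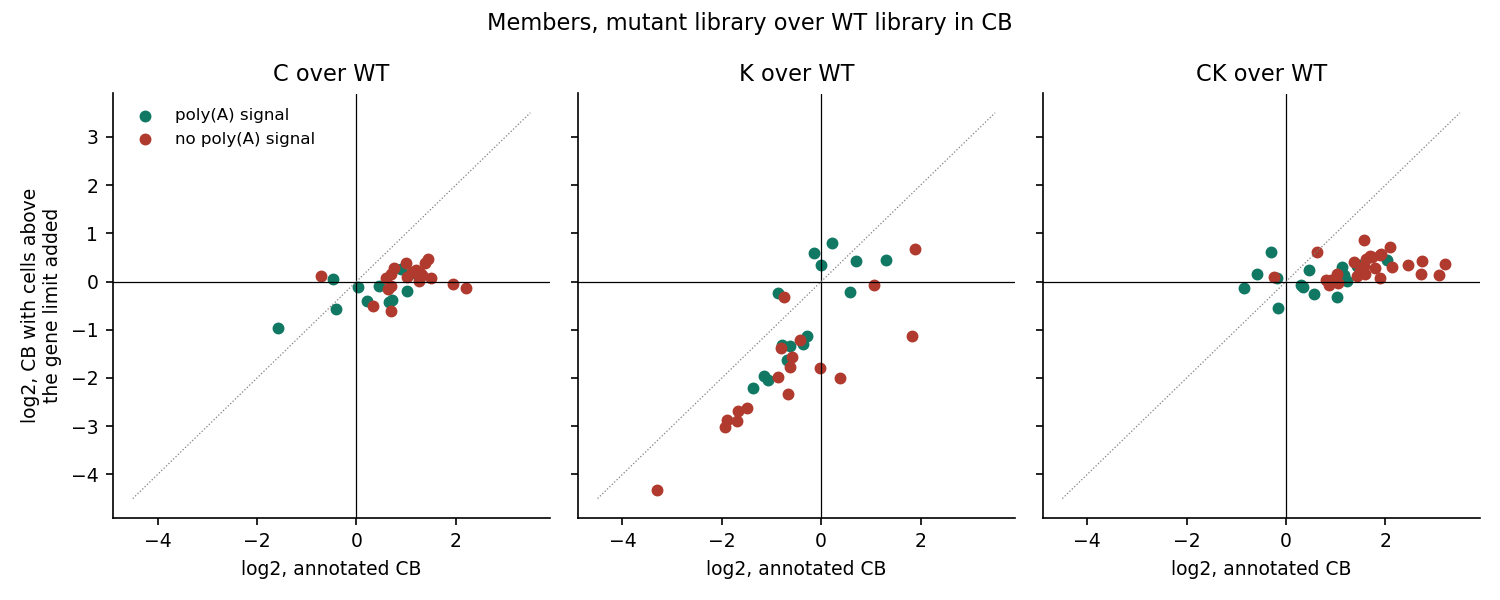
Log2 ratio over WT of each member in annotated CB (horizontal axis) and in CB with the cells over the limit included (vertical axis), for the 3 mutants. Members are coloured by the presence of a poly(A) hexamer in the annotated bases after the stop codon. Points of C and CK spread along the horizontal axis and gather near 0 on the vertical one, and those of K reach -4.33 on the vertical axis.

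Among members with 50 or more UMIs over CK and WT, Hist1h2ak, Hist1h2bm and Hist1h2bn had the highest ratios of CK over WT in annotated CB. Hist1h2ak, an H2A gene, was at 2.08, 9.62, 7.39 and 17.6 CPM, a log2 ratio of 3.08 (1.19 to 6.15) that rests on 2 UMIs in WT. Hist1h2bm, an H2B gene, was at 11.4, 43.8, 14.8 and 76.6 CPM, a ratio of 2.75 (1.89 to 3.76). Hist1h2bn was at 5.20, 13, 5.12 and 22.9 CPM, a ratio of 2.14 (0.87 to 3.79). With cells added the ratios were 0.15, 0.42 and 0.30, and only that of Hist1h2bm had an interval above 0 (0.23 to 0.61). Under the same minimum the lowest were Hist3h2ba at -0.58 (-1.36 to 0.27), Hist1h2bc at -0.30 (-0.73 to 0.15) and Hist1h3d at -0.25 (-1.05 to 0.64), all with intervals across 0. With cells added Hist1h2bc was at 0.62 (0.33 to 0.93), the other side of WT.

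In annotated CB the classes differed in how far C and CK lay from WT, a difference that was not tested. In G2M-leading CB, the larger class, the log2 ratio of the sum was 1.04 (0.95 to 1.14) for C, -0.46 (-0.56 to -0.35) for K and 1.57 (1.48 to 1.66) for CK. In S-leading CB the log2 ratio of the sum to WT was 0.23, -1.24 and 0.34 for C, K and CK. Hist1h1b was at 0.37 (0.16 to 0.59) for C, -2.42 (-2.69 to -2.15) for K and 0.29 (0.09 to 0.50) for CK. With the cells over the limit included and scores computed here, G2M-leading CB of WT stood at 3283 CPM, against 1371 in annotated cells. C and CK then lay nearer to WT in that class, and the difference between the classes shrank. In CC, where levels lay below those of the T cell gate, the ratios of the sum were 0.43, -0.72 and 0.39. Relative to the T cell gate of the same library, the sum in CB had log2 ratios of 0.69, 0.29 and 0.65 for the 3 mutants, and that in S-leading CB -0.06, -0.47 and -0.43, so that the direction of K turned in CB and that of C and CK in S-leading CB.

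K differed from the other libraries in which members it held. With cells added, Hist1h1b in CB was at 1258, 1418, 203 and 1570 CPM, a log2 ratio of K over WT of -2.63 (-2.70 to -2.56). Hist1h2an, at 75.2, 80.8, 3.75 and 74.1 CPM, had the lowest ratio of the named members, -4.33 (-4.85 to -3.84). Hist2h2ac, a core H2A gene of chromosome 3, was at 147, 203, 20.1 and 217 CPM, a ratio of -2.87 (-3.10 to -2.65). Hist1h2ap, in contrast, was at 208, 136, 331 and 306 CPM, a ratio of 0.67 (0.58 to 0.76), and Hist1h4i at 119, 110, 159 and 140, a ratio of 0.42 (0.29 to 0.54). All 5 H1 members were lower in K than in WT, between -1.30 and -2.89, and the sum without H1 had a ratio of -0.81. In annotated CB that sum was at 0.15, the opposite side of the sum with H1.

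**Figure D5:**
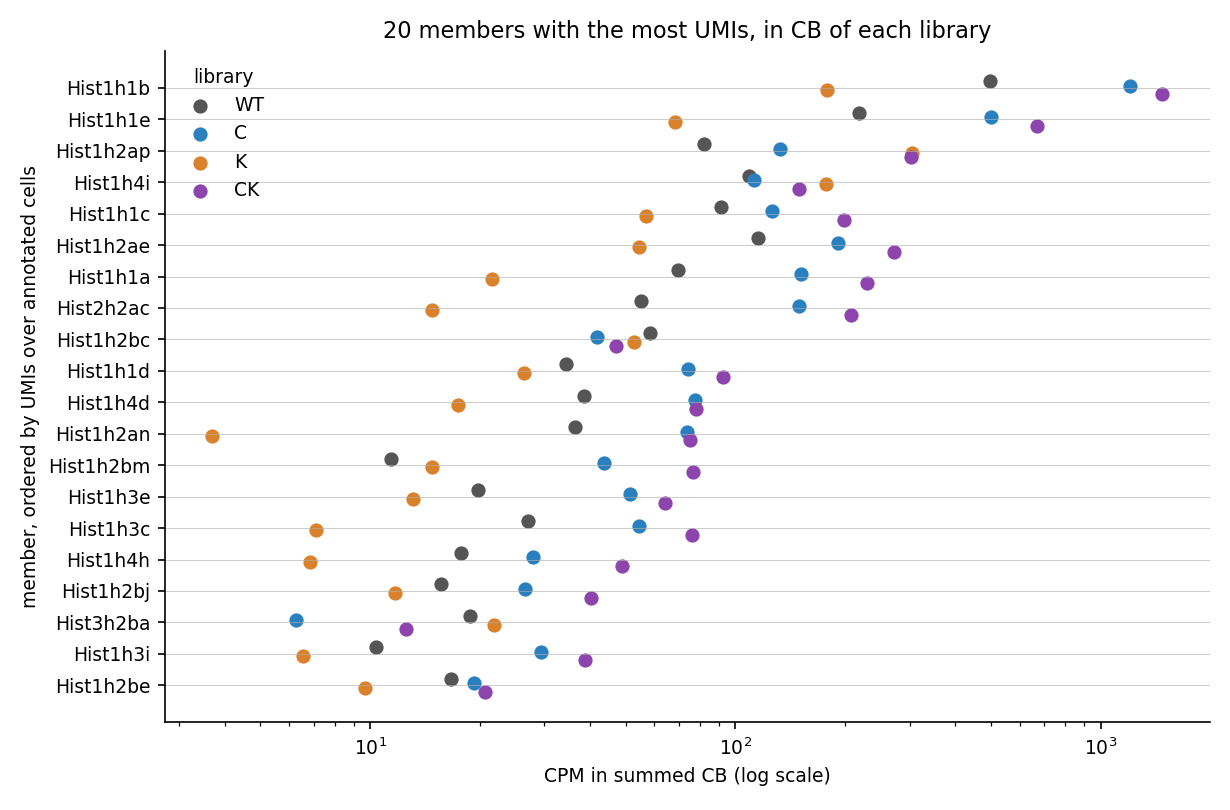
Level in annotated CB (horizontal axis, CPM on a log scale) of the 20 members with the most UMIs, 1 point per library. For Hist1h1b, Hist1h1e and Hist2h2ac the point of K is the lowest of the 4, and for Hist1h2ap and Hist1h4i it is the highest.

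Ratios between members were lowest in K in every kind of cell examined. The pairs set members low in K over members high in K, so a low value of K in CB follows from the choice. Hist1h1b over Hist1h2ap, in UMIs, was in CB 6.08 (4.78 to 7.81) for WT, 9.09 (8.02 to 10.3) for C, 0.584 (0.528 to 0.645) for K and 4.86 (4.59 to 5.15) for CK. In GC B cells above the gene limit it was 6.68, 12.2, 0.681 and 5.67. In the T cell gate it was 4.82 (2.49 to 10.2), 16.4 (7.72 to 41.8), 0.440 (0.195 to 0.927) and 5.04 (3.93 to 6.53). K thus had the lowest value also in this gate, and its interval met none of the others. The gate held GC B markers at 118, 93.6, 107 and 132 CPM. Whether its member UMIs include background from GC B cells of the same library was not tested. Hist1h1e over Hist1h4i was 2.0, 4.48, 0.385 and 4.49 in CB and 5.0, 5.80, 0.982 and 5.04 in the T cell gate. In WT the intervals of these CB and gate values did not overlap (1.57 to 2.55 and 3.44 to 7.46). Hist2h2ac over Hist1h2ap went from 0.671, 1.12, 0.0486 and 0.683 in CB to 4.82, 11.4, 0.360 and 1.74 in the gate, and K was lowest in both.

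Members with and without a poly(A) hexamer differed in their median in K, and the share of them among the low members was close to that among all. In CB with cells added, the 32 members with a value and no hexamer had a median log2 ratio of K over WT of -1.52, and 21 of them were at -1 or lower. The 20 members with a hexamer had a median of -0.23, and 9 were at -1 or lower. Of the 30 low members 21 thus lacked a hexamer, and of the 52 with a value 32. In annotated CB the medians were -0.71 without and -0.38 with a hexamer, and 6 of 18 and 3 of 15 were at -1 or lower. The median over all genes with cells added was -0.14. In C the medians were 0.10 without and -0.13 with a hexamer, and in CK 0.32 and 0.14. Members with a hexamer held 35.0, 23.7, 44.3 and 22.9% of member UMIs in annotated cells. Among those counted without a hexamer, Hist1h1b and Hist1h2an have no annotated bases after the stop codon to search. Hist1h2ap has no hexamer but the A-rich stretch printed above. Hist1h1e, without a hexamer, was at -2.67, and Hist1h1c, with one, at -1.63. Whether the genotype, the mouse or the capture of messages in that library goes with this difference cannot be told apart, since each genotype is 1 library.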

How the data were processed

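Single-cell libraries of 4 mice (WT, C, K and CK) were analysed from the deposited files. The raw UMI counts were made by the authors with Cell Ranger 3.0 on mm10, per the processing notes. The deposited cell table was made with Seurat 4.0: cell types by label transfer, S and G2M scores as module scores with 5 control genes, and pseudotime ranks made for each mutant with WT, so bins were taken within a library. Its percent values are the mitochondrial share of UMIs as deposited by the authors. Whether strand was used in counting is not given in the sources used here. Called doublets (Scrublet in scanpy 1.11.5) stayed in, except in 1 alternative. For C the automatic threshold of 0.637 called 0% of barcodes, so the median threshold of the other libraries, 0.205, was used there.

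CPM are counts over the total UMIs of the summed cells, on the usual CPM scale. Sums per library and score class were tested with edgeR 4.0.16 (R 4.3.3; quasi-likelihood, library as a block, filter on low counts, Benjamini-Hochberg over all genes, adjusted p under 0.05). On simulated data for S-leading over neither-score cells with 9877 genes, 66, 94, 100 and 100% of genes changed by log2 0.5, 1, 2 and 3 were recovered. Other values carry exact Poisson or conditional binomial 95% intervals; genotypes, with 1 mouse each, were not tested. GC B cells at or above 2500 genes, which the cell table leaves out, were added as an alternative. Barcodes were gated on T cell markers below 2500 genes and 8% mitochondrial UMIs.

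Members and lists were chosen with earlier results of these data known. Named were the 10 members with the most UMIs, the 3 highest and 3 lowest ratios of S-leading over neither-score cells (200 or more UMIs) and of CK over WT in CB (50 or more UMIs), and genes next to the minimum of 20 UMIs. Other groupings were chosen after values were seen. Alternatives were DESeq2 1.42.0, other size factors, no filter, no block, thinning to 2000 UMIs, doublets removed, libraries left out, CB alone, weighting to the classes of WT, and H1 left out or alone.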

Additional observations from a re-analysis of the deposited data

Results flagged for a closer look

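The member sum in G2M-leading over S-leading cells pointed in opposite directions in CB and in cells in transition from CB to CC. In CB the log2 ratio was -2.03 in WT, -1.21 for C, -1.25 for K and -0.80 for CK. In transition cells it was 2.37 (1.79 to 2.90), 0.73 (-0.12 to 1.47), 2.0 (1.45 to 2.50) and 0.81 (0.47 to 1.14). The G2M-leading transition cells were 9, 9, 17 and 38, and the interval of C crosses 0. Early CB also lay above 0, at 1.09 (0.76 to 1.39) for C, 1.69 (1.21 to 2.13) for K and 1.34 (1.19 to 1.49) for CK. These rest on 3, 3 and 12 G2M-leading cells, and all early CB of WT were S-leading. The difference between the subtypes was not tested.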

How the results depend on the processing

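Of the main values recomputed under the alternatives, 101 kept their direction and stayed close, 57 moved and 9 turned. Within CB alone 23 of 26 members rose in S-leading over neither-score cells, and 0 rose in G2M-leading over S-leading cells. With no library block the second count was 15 of 38. Leaving out 1 library gave 29 to 36 and 28 to 37 members. DESeq2 gave 33 and 32. No paired analysis was possible because each genotype is 1 library; the library block pairs classes within a mouse and is part of the test. For CB over CC, thinning gave 3.01 in WT and 3.59 in C, leaving out the member with the most UMIs 2.87, 3.27, 3.26 and 3.83, the median over members 2.34, 3.23, 2.17 and 3.49, and cells above the limit 4.29 in WT. For the first over the last pseudotime bin of 5, leaving out that member gave 1.76, 3.03, 3.29 and 3.95 and the median 1.14, 2.55, 2.65 and 3.66.

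For C over WT in CB, leaving out Hist1h1b gave 0.83, cells above the limit 0.074, the T cell gate as reference 0.69, H1 left out 0.70, H1 alone 1.17 and weighting to WT classes 0.81. For K the values were -0.20, -1.55, 0.29 (turned), 0.15 (turned), -1.38 and -0.64, with -1.11 for the median over members and -0.33 with median-ratio size factors. For CK, cells above the limit gave 0.32, the gate 0.65, H1 left out 1.24, H1 alone 1.55 and weighting 1.24. H1 left out together with cells above the limit added gave -0.075 (turned) for C, -0.81 for K and 0.25 for CK. In CC, C was at 0.67 by the median, 0.68 with cells above the limit, 0.14 to the gate, 0.061 without H1 and 0.67 with H1 alone. K there was at 0.050 to the gate (turned), -0.18 without H1 and -1.37 with H1 alone, and CK at -0.38 to the gate (turned). In S-leading CB, C was at 0.46 thinned, -0.41 by the median (turned), 0.015 with cells above the limit and -0.060 to the gate (turned). K was at -0.80 without Hist1h1b, -2.22 by the median, -1.58 with cells above the limit, -0.47 to the gate, -0.30 without H1 and -2.25 with H1 alone. CK was at 0.49 thinned, 0.18 with cells above the limit and -0.43 to the gate (turned). The H1 alternatives were chosen after seeing the data, and the cause of these changes was not tested.

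Of values of single members, 431 stayed, 40 moved, 21 lost and 5 gained a call, and 19 turned. In G2M-leading over S-leading cells within CB, those that turned were Hist1h1a (-1.63), Hist1h1b (-1.61), Hist1h1c (-0.85), Hist1h1d (-1.17), Hist1h1e (-0.89), Hist1h2ae (-1.06), Hist1h2an (-1.49), Hist1h2ap (-1.09), Hist1h2bc (-0.41), Hist1h4i (-1.26), Hist2h2ac (-0.84) and Hist3h2ba (-0.15). With cells above the limit Hist1h2bc (-0.12) turned in that comparison, Hist3h2ba (0.37) in S-leading over neither-score cells, and Hist1h1c (-0.089), Hist1h2ae (-0.38), Hist1h2ak (-0.13), Hist1h2ap (-0.62) and Hist1h2bm (-0.040) in C over WT in CB. The 9 members of 24 to 56 UMIs that failed the filter on low counts mark the limit of depth.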
